A study of Mus musculus with 2 samples.

Results

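Metallothioneins and the proteins that work with them were measured as 6 genes: the metallothionein genes Mt1, Mt2 and Mt3, the zinc sensor gene Mtf1, and the zinc exporter genes Slc30a1 and Slc30a3. The members were taken by name: every probe for a mouse transcript whose RefSeq accession belongs to one of these symbols. This gave 8 probes on 17 spots, out of 41171 probes for 33266 genes and transcripts on the array. All 6 genes had at least 1 probe whose signal was well above background in ASX and control RNA alike on each array. So had 23597 genes and transcripts in all, which are called measured below.

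The RNA came from the hippocampus of male C57BL/6J mice, 11 weeks old and of 26 to 28 g, kept 1 to a cage. After 1 week of acclimatization the astaxanthin (ASX) group ate powdered chow with 0.5% by weight of a powder of which 2% was astaxanthin, a carotenoid of the alga Haematococcus pluvialis, for 4 weeks. The control group ate the same chow with placebo powder and 0% ASX powder. Total RNA of both groups was compared on 2 two-colour arrays of opposite dye assignment, each titled with 4 mice: ASX RNA carried Cy5 on array 1 and Cy3 on array 2. The labels do not state whether the mice's RNA was pooled, so the arrays count as 1 replicate of the diet comparison, an SD between them is technical, and no test of the diet could be made. Between 75.8% and 78.2% of the 43379 spots for mouse transcripts were well above background in each RNA on each array, and the number of arrays limits the precision. Of the hippocampal neuron markers, all 8 of the pyramidal cell list and 5 of 6 of the dentate granule cell list were measured, and so were all 8 striatal markers.

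Metallothioneins are small cysteine-rich proteins that bind zinc and copper ions and can scavenge oxidants. In brain, Mt1 and Mt2 are made mainly by astrocytes and are induced by zinc, glucocorticoids and oxidative stress, while Mt3, also named growth inhibitory factor, is enriched in brain and little induced by metals. Mtf1 encodes the transcription factor that senses free zinc and binds metal response elements in the promoters of Mt1, Mt2 and Slc30a1. Slc30a1 encodes ZnT1, which exports zinc across the plasma membrane, and Slc30a3 encodes ZnT3, which loads zinc into the synaptic vesicles of glutamatergic neurons such as the hippocampal mossy fibres.

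The promoters of the 3 metallothionein genes are shown because metal response elements lie in such stretches. The sequences are those of RefSeq (GRCm38.p6), each the 250 bases before the annotated start of the gene on the plus strand, 5′ to 3′, with matches to the core of the metal response element in capitals.
Mt1, chr8:94178839-94179088: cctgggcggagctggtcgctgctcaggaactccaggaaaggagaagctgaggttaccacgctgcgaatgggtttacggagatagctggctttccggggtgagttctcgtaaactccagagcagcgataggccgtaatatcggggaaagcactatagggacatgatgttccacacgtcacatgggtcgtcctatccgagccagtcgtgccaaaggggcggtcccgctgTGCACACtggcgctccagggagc
Mt2, chr8:94172368-94172617: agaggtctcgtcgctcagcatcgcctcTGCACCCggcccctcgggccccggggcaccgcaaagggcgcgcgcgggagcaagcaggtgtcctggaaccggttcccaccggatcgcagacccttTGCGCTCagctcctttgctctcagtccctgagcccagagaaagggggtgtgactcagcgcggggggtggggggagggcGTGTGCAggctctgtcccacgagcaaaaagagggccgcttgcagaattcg
Mt3, chr8:94152357-94152606: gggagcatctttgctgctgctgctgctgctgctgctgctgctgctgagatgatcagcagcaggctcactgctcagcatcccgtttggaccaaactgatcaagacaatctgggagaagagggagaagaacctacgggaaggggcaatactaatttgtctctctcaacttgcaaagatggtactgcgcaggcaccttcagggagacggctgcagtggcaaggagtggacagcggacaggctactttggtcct
The core was searched as TGCACNC and as TGCGCNC, on both strands, over these bases and the 50 after the start. Mt2 had 4 matches, 3 of them in the stretch shown. Mt1 had 3, 1 of them in the stretch shown and the other 2 just after the annotated start. Mt3 had 1, after the start, Slc30a1 had 2, and Mtf1 had 0. Slc30a3 has 2 annotated starts, with 0 and 1 matches. Of 32851 mouse promoter windows of the same length, 25.7% held at least 1 match, 7.11% at least 2, 1.97% at least 3 and 0.517% at least 4. The core of the antioxidant response element, TGACNNNGC, to which Nrf2 binds, matched once each in Mt2 and Slc30a1, beside 12.4% of all windows; the match in Mt2 did not overlap a metal response core. A match is a description of the letters and not a bound site. The counts cover only the 300 bases around each annotated start, and elements outside them were not searched. Whether transcription in hippocampus begins at these starts was not tested.

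No member differed by 1.5-fold or more in one diet direction on both arrays. That rule called 0 of the 6 higher in ASX, beside 0.0636% of the 23597 measured genes and transcripts, and 0 of 6 lower, beside 0.0212%. The mean log2 ratio of ASX over control over the arrays, the diet part, lay between -0.0385 for Mt3 and 0.25 for Mt2. The median of the 6 was 0.077, against -0.0042 for everything measured. With loess scaling the arrays gave opposite signs on 5 of 6 members, as they did for 54.8% of everything measured. Only Mtf1 was then above 0 on both arrays, beside 22.2% of all, and none of the 6 was below 0 on both, beside 23.0%. Of the 13313 measured genes with a symbol, as all members and all genes of the lists below have, 1906 were above 0 on both arrays and 3508 below. A further 7899 had opposite signs, and the median of these genes was -0.019. The signs of the members depend on the scaling. With the log ratio of the scanner software, 4 members were above 0 on both arrays, beside 22.2% of all, and 1 was below, beside 23.7%, so that only Mt3 had opposite signs.

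**Figure D1:**
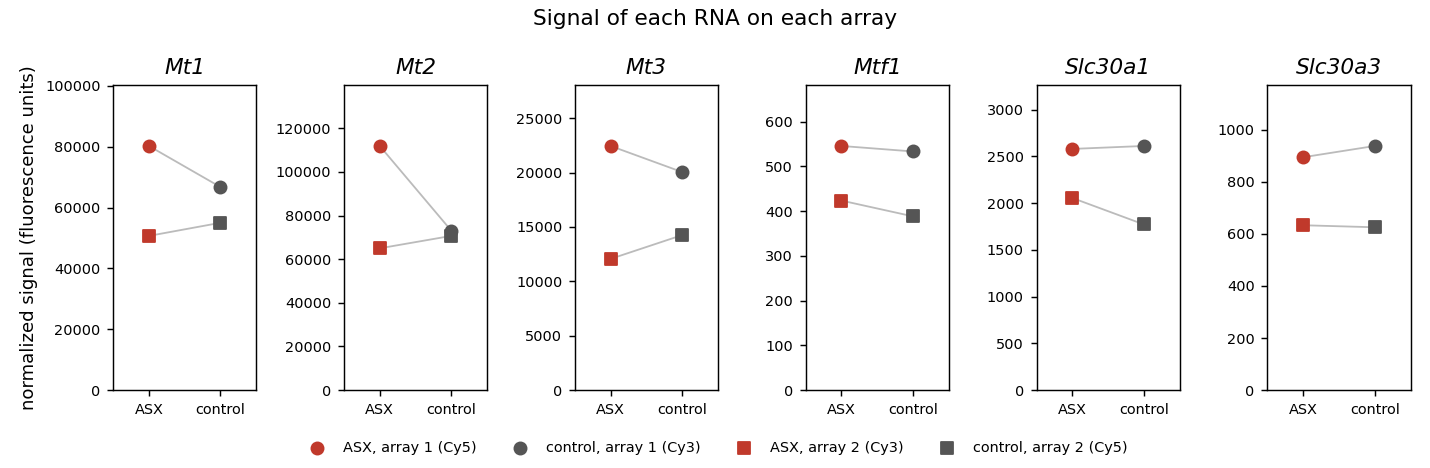
Normalized signal (vertical axes, fluorescence units on a linear scale from 0, a scale per gene) of the ASX RNA (red) and the control RNA (grey) for the probe used of each gene, on array 1 (circles) and array 2 (squares), each array's pair joined by a line. For Mt1, Mt2 and Mt3 the ASX RNA is higher on array 1 and the control RNA is higher on array 2.

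Mt1 was read by 1 probe printed 10 times on each array. Its normalized signal on array 1 was 80267 fluorescence units in ASX RNA and 66755 in control RNA, and on array 2 it was 50700 in ASX RNA and 55015 in control RNA. The ASX RNA was thus the higher on array 1 and the lower on array 2. The log2 ratio was 0.27 on array 1 with an SD of 0.018 over the 10 spots, and -0.12 on array 2 with an SD of 0.0094. With this loess scaling it ran over the spots from 0.23 to 0.29 on array 1 and from -0.13 to -0.098 on array 2, so no spot of one array reached any spot of the other. In the authors' deposited table the same 10 spots, turned to ASX over control, ran from -0.0036 to 0.11 on array 1 and from 0.020 to 0.095 on array 2. There the arrays overlapped, so the gap between them depends on the processing. The mean of the arrays was 0.074, a fold of 1.05, with an SD of 0.27 between the arrays.

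Mt2 had the largest diet part of the 6. Its single spot gave 111905 fluorescence units in ASX RNA and 73050 in control RNA on array 1, and 64992 in ASX RNA and 70689 in control RNA on array 2. The log2 ratio was 0.62 on array 1 and -0.12 on array 2, with a mean of 0.25 (fold 1.19) and an SD of 0.52. Only the ratio on array 1 passed 1.5-fold, and the control RNA was the higher on array 2. In the authors' deposited table the scanner software's error-model p for this spot was 0.0564 on array 1 and 0.675 on array 2. That p covers the error of 1 spot and not the diet, and it was the lowest of the 34 that the members' spots had.

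Mt3 gave 22440 fluorescence units in ASX RNA and 20040 in control RNA on array 1, and 12061 in ASX RNA and 14247 in control RNA on array 2. The ratio changed side with the dye as for Mt1 and Mt2: 0.16 on array 1 and -0.24 on array 2. The mean was -0.0385 (fold 0.974) with an SD of 0.29. Probe sequences were not used here, and whether the probes of these related genes read each other's RNA was not tested.

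**Figure D2:**
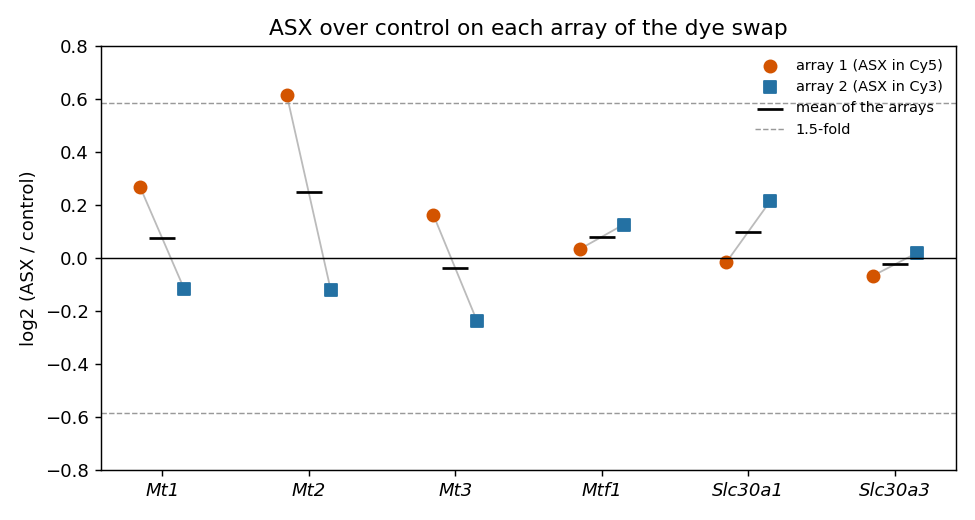
The log2 ratio of ASX over control (vertical axis) for the 6 genes on array 1 (orange circles, ASX in Cy5) and array 2 (blue squares, ASX in Cy3), with black bars for the mean of the arrays and dashed lines at 1.5-fold. The 3 metallothionein genes lie above 0 on array 1 and below 0 on array 2, and only the array 1 value of Mt2, 0.62, passes a dashed line.

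With loess scaling the 3 metallothionein genes were brighter in Cy5 on both arrays, as were 27.2% of everything measured, and Mtf1, Slc30a1 and Slc30a3 leaned to Cy3. The dye part, which is the mean log2 ratio of Cy5 over Cy3 on the 2 arrays, was 0.19 for Mt1, 0.37 for Mt2 and 0.20 for Mt3. It was -0.0463 for Mtf1, -0.12 for Slc30a1 and -0.0432 for Slc30a3. With loess the dye part thus exceeded the size of the diet part for Mt1, Mt2, Mt3, Slc30a1 and Slc30a3. That is the same as opposite signs on the arrays, which 54.8% of everything measured had. With the scanner's log ratio it did so only for Mt3, at 0.24 beside a diet part of -0.0271. The dye part was then 0.009 for Mt1 beside a diet part of 0.058, and 0.15 for Mt2 beside 0.24.

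Brightness moved with the dye part under loess scaling. Of the 161 genes with a mean log2 signal above 16, 146 were brighter in Cy5 on both arrays. Among the 241 genes within 0.5 log2 units of the brightness of Mt1, itself included, the median dye part was 0.15, and 199 leaned to Cy5. Among the 202 around Mt2 the median was 0.23, and 182 leaned to Cy5. Among the 929 around Mt3 it was -0.0294, and 374 leaned to Cy5, so Mt3 lay above the 95th percentile of 0.17 there, while Mt1 and Mt2 lay inside the range from the 5th to the 95th percentile. With the scanner's log ratio the median dye parts were -0.0217 around Mt1, 0.034 around Mt2 and -0.0194 around Mt3, and 100 of the 161 brightest genes were brighter in Cy5 on both arrays. The part of brightness in these results was not tested beyond this.

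The diet part of Mt2 stood apart from genes of like brightness, as a description of these arrays and with no test. The 202 genes around it had a median diet part of 0.027 with a 5th to 95th percentile range of -0.0663 to 0.13, and 0 of the others reached the 0.25 of Mt2. Around Mt1 the median was 0.017, and 55 of the others reached its 0.074. Around Mt3 it was -0.0009, and 691 of the others were as high as its -0.0385.

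**Figure D3:**
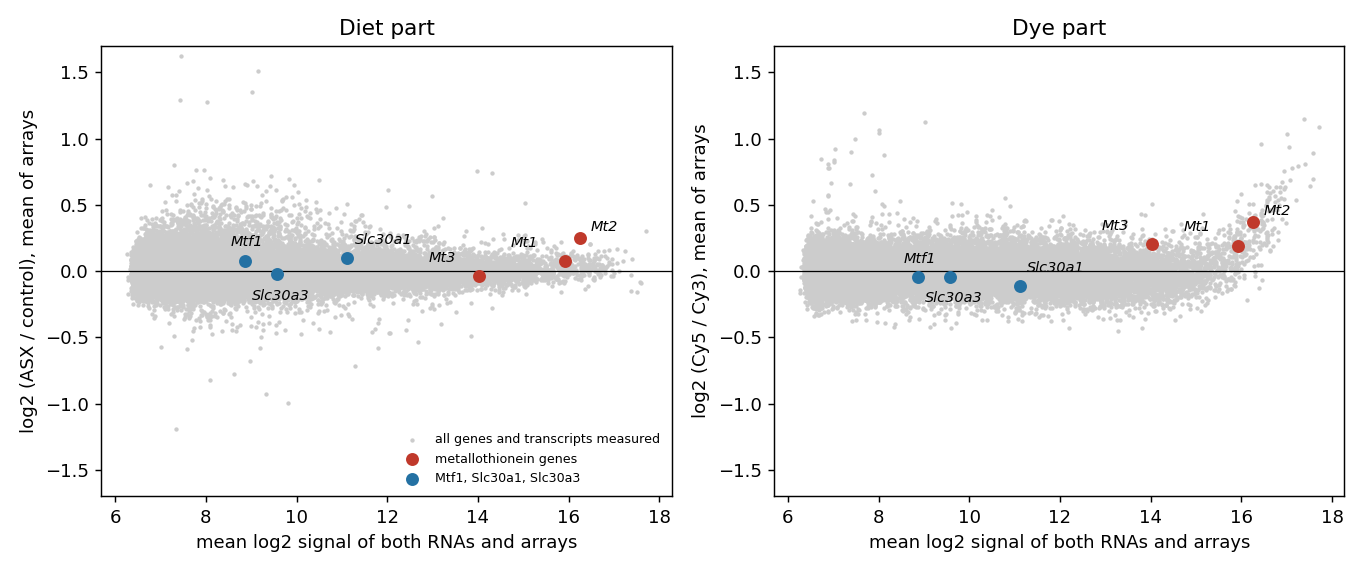
Diet part (left, mean log2 of ASX over control) and dye part (right, mean log2 of Cy5 over Cy3) against mean log2 signal, after loess scaling, for all 23597 genes and transcripts measured (grey), the metallothionein genes (red) and Mtf1, Slc30a1 and Slc30a3 (blue). The dye part climbs for the brightest genes, where Mt1 and Mt2 lie, and Mt2 stands above the genes of like brightness on the left.

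The deposited log ratio, from the scanner software's own processing, changed the picture for Mt1 and Mt2 on single arrays but hardly in the mean. With it the log2 ratio of Mt1 was 0.067 on array 1 and 0.049 on array 2, and that of Mt2 was 0.40 on array 1 and 0.086 on array 2. Both genes were then above 0 on both arrays, as were 22.2% of all, with means of 0.058 and 0.24. Mt3 still changed side, with 0.21 on array 1 and -0.26 on array 2. Around Mt2, 0 of the others among the 202 genes reached its mean with this scaling too. Centring each array on its median in place of loess left Mt2 at 0.0009 and Mt1 at -0.17, but it also moved the median of everything measured to -0.10. Relative to that median Mt2 was at 0.11 and Mt1 at -0.0628, so the sign of Mt1 depends on the scaling.

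**Figure D4:**
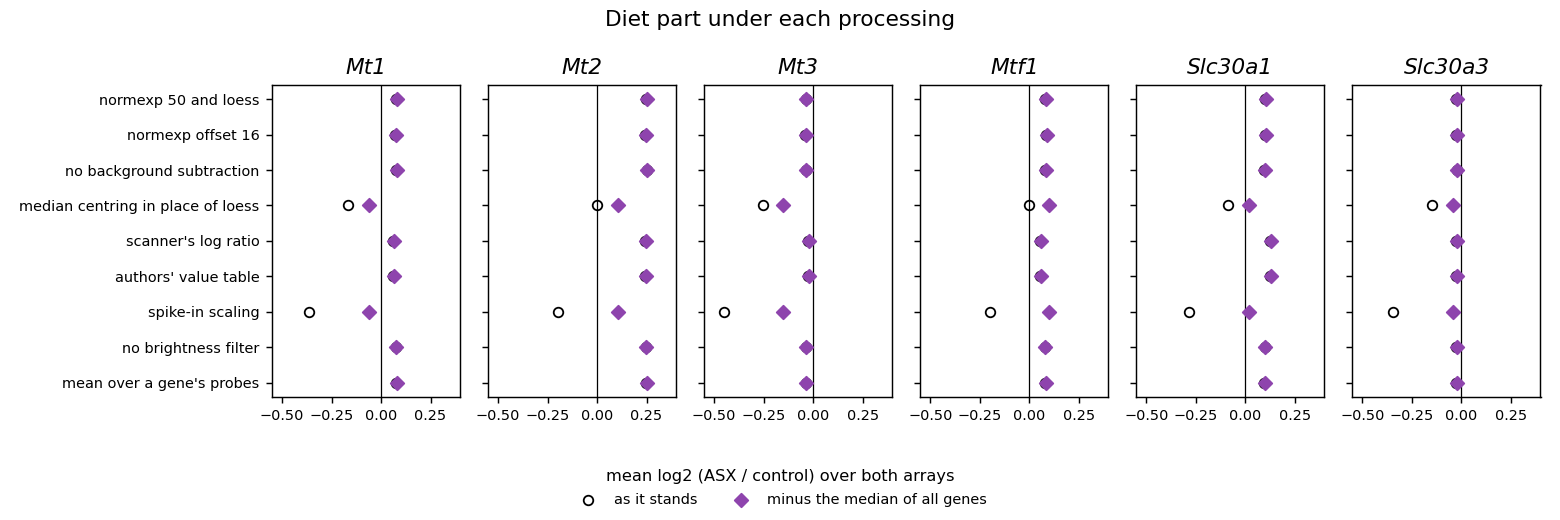
Diet part (horizontal axes, log2 of ASX over control, mean of both arrays) of each gene under 9 ways of processing (rows), as it stands (open circles) and after taking away the median of all genes (purple diamonds). Relative to that median Mt2 lies between 0.11 and 0.25 in all 9, while Mt1 lies below 0 with median centring and with spike-in scaling.

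Mtf1, the zinc sensor gene, gave 545 fluorescence units in ASX RNA and 533 in control RNA on array 1, and 423 in ASX RNA and 388 in control RNA on array 2. The log2 ratios were 0.0328 and 0.13, with a mean of 0.079 (fold 1.06) and an SD of 0.0655. The arrays agreed on the side of 0, but the size was close to the SD. Another probe of Mtf1 was not well above background for either RNA on either array.

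Slc30a1, the plasma membrane exporter gene and a target of the zinc sensor, was read by 2 probes. The brighter one gave 2579 fluorescence units in ASX RNA and 2610 in control RNA on array 1, and 2054 in ASX RNA and 1771 in control RNA on array 2. Its log2 ratios were -0.0176 and 0.21, with a mean of 0.098 (fold 1.07) and an SD of 0.16. The other probe gave 1219 in ASX RNA and 1141 in control RNA on array 1, and 862 in ASX RNA and 809 in control RNA on array 2, which is 0.095 and 0.091 on the log2 scale. The probes thus differed on array 1, where only the dimmer one was above 0, while their means were 0.098 and 0.093. With the scanner's log ratio the brighter probe was at 0.0021 on array 1 and 0.24 on array 2.

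Slc30a3, the vesicular zinc transporter gene, gave 894 fluorescence units in ASX RNA and 937 in control RNA on array 1, and 633 in ASX RNA and 625 in control RNA on array 2. The log2 ratios were -0.0684 and 0.018, the mean was -0.0252 (fold 0.983) and the SD was 0.061. The values of both RNAs were nearly equal on each array, and the difference was smaller than the SD. With the scanner's log ratio the values were -0.0368 and -0.0185, both below 0. Relative to the median of everything measured, the mean of Slc30a3 lay between -0.0435 and -0.0194 over the 9 ways of processing.

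The wider zinc machinery was followed by 28 metallothionein, ZnT and ZIP genes, which include every member but Mtf1. Of these, 24 were measured, and all 24 were within 1.2-fold in the mean, as were 96.3% of everything measured. On both arrays 5 were above 0, beside 22.2% of everything measured, and 8 below, beside 23.0%. None passed 1.5-fold in the same diet direction on both arrays. Mt4, a metallothionein gene best known from stratified epithelia, was at -0.0134 on array 1 and -0.23 on array 2, from a dim probe, and its other probe was not well above background. Of 10 ZnT exporter genes 8 were measured, with a median of 0.024. On both arrays 4 of them were above 0, beside 22.2% of everything measured, and 1 below, beside 23.0%. The scanner's log ratio gave 2 above and 2 below, beside 22.2% and 23.7%. Slc30a6, whose product moves zinc into the Golgi, was at -0.20 and -0.074, and Slc30a1 had the highest mean.

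Of the ZIP genes, whose products bring zinc into the cytosol, 12 were measured out of 14. On both arrays 6 of them were below 0, beside 23.0% of everything measured, and 1 was above, beside 22.2%. Of the 13313 measured genes with a symbol, 3508 were below 0 on both arrays and 1906 above. The median of the ZIP genes was -0.0439, and relative to everything measured it lay between -0.099 and -0.0335 over the 9 ways of processing. Slc39a8, which encodes the zinc and manganese importer ZIP8, was at -0.22 on array 1 and -0.0744 on array 2, a mean of -0.15. Slc39a6, which encodes ZIP6, had the highest mean, 0.15, with 0.016 on array 1 and 0.28 on array 2.

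**Figure D5:**
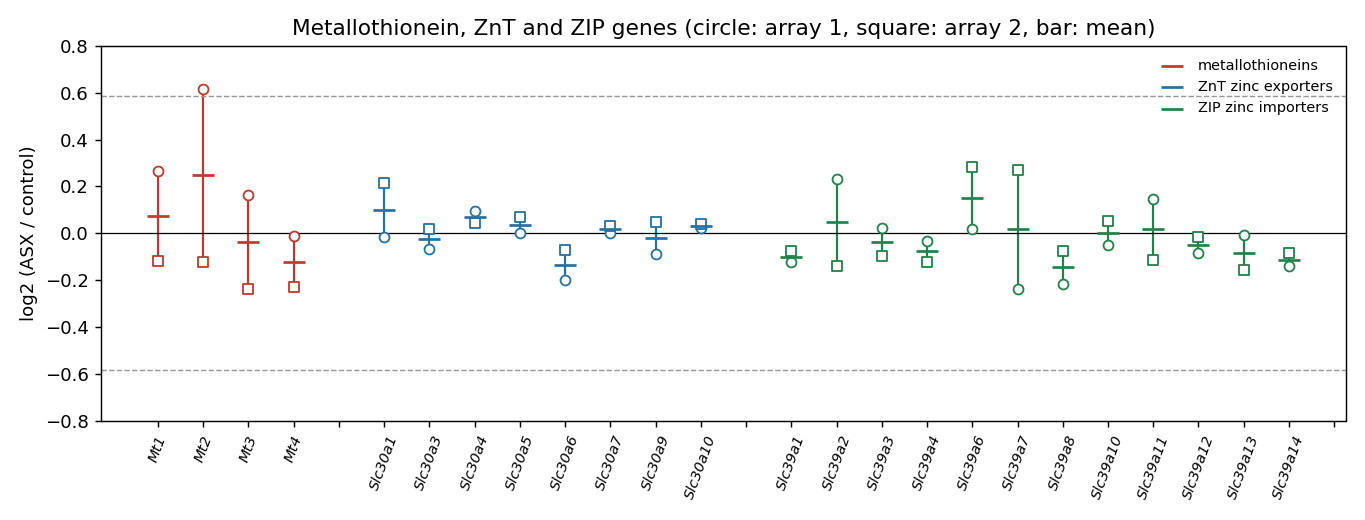
The log2 ratio of ASX over control (vertical axis) for 4 metallothionein (red), 8 ZnT (blue) and 12 ZIP (green) genes on array 1 (circles) and array 2 (squares), with bars at the mean and dashed lines at 1.5-fold. All 24 means lie between -0.15 and 0.25, and the metallothionein genes have the higher value on array 1.

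Other genes that the zinc sensor controls, and the partners of vesicular zinc, held no gene past 1.5-fold in the same diet direction on both arrays. All 4 measured targets of the sensor had opposite signs on the arrays, as had 54.8% of everything measured, and their median was -0.0068. Selenow, a selenoprotein gene, followed the dye, with 1.08 on array 1 and -0.83 on array 2, and Csrp1, a LIM-domain protein gene, had -0.45 and 0.26. Among 5 measured partners of vesicular zinc the median was 0.021. Grin2a, which encodes the NMDA receptor subunit with the high-affinity zinc site, had 0.41 on array 1 and 0.53 on array 2. Ap3m2, a subunit gene of the adaptor complex that sorts ZnT3 to vesicles, had -0.20 and 0.047, and another probe of it had -0.0532 and 0.065.

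Stimuli known to induce Mt1 and Mt2 were followed by 3 further lists, and none held a gene past 1.5-fold in the same diet direction on both arrays. The 10 measured glucocorticoid response genes had a median of 0.026. Of these, 2 were above 0 on both arrays and 2 below, beside 22.2% and 23.0% of everything measured. In that list Cdkn1a, which encodes the p21 protein that holds cells in G1, was at -0.55 on array 1 and -0.61 on array 2. Pdk4, a kinase gene of glucose metabolism, was at -0.13 and -0.21. The 9 measured Nrf2 pathway genes had a median of -0.0699. Of these, 0 were above 0 on both arrays and 2 below, beside the same shares of everything measured. Nfe2l2, the gene of Nrf2 itself, had -0.13 and -0.12, though another probe had 0.0032 on array 2, and Gclm, of glutathione synthesis, had -0.29 and 0.038. Of the acute phase list 5 of 7 were measured, with a median of -0.0883 in the mean of the arrays, 0.19 on array 1 and -0.0882 on array 2. Cebpd, a transcription factor gene of that response, had 0.19 and 0.26, and Socs3, a feedback inhibitor gene, had -0.23 and -0.034.

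The cells that carry these transcripts were compared by their markers, since fewer cells of a type and less RNA per cell cannot be told apart in tissue RNA. All 10 astrocyte markers were measured. Their median was -0.0374, with 0.08 on array 1 and -0.0693 on array 2. On both arrays 2 were above 0 and 0 below, beside 22.2% and 23.0% of everything measured. Slc1a2, the astrocyte glutamate transporter gene, had a mean of 0.22, though another probe had -0.0413 on array 2. S100b, a calcium-binding protein gene, had -0.31 on array 1 and 0.068 on array 2, a mean of -0.12. The 8 endothelial markers had a median of -0.0586, with Cldn5 at -0.20 and Abcb1a at -0.13 in the mean. Both changed side between the arrays, Cldn5 from -0.55 on array 1 to 0.14 on array 2 and Abcb1a from -0.34 to 0.083. The 5 measured choroid plexus markers had a median of -0.0669, with Aqp1 at 0.20 and Folr1 at -0.13. The 8 meningeal fibroblast markers had a median of 0.18, with Col1a1 and Col1a2 at 0.23 and 0.19. On both arrays 5 of the 8 were above 0, beside 22.2% of everything measured, and 0 below, beside 23.0%. Among the 13313 measured genes with a symbol, 1906 were above and 3508 below. The part of these cell types in the metallothionein values was not tested.

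Among neurons, the dentate granule cell markers had a median of 0.12, with Stxbp6 and Tdo2 at 0.13 each. Of the 5 measured, 4 were above 0 on both arrays, beside 22.2% of everything measured and 1906 of the 13313 genes with a symbol. The pyramidal cell markers had a median of 0.026, with Wfs1 at -0.0858 and Camk2a at 0.070 in the mean. Wfs1 changed side, with -0.19 on array 1 and 0.018 on array 2. Markers of neighbouring tissue lay further out. The striatal list had a median of -0.24, with 7 of 8 below 0 on both arrays, beside 23.0% of everything measured. The 5 measured ependymal genes had -0.21, with Dynlrb2 at -0.29 and Mia at -0.24. In the list of blood cells S100a8 and S100a9, abundant in neutrophils, were past 1.5-fold higher, with means of 0.65 and 1.27. So were 0.0636% of everything measured. Both were dim, with mean log2 signals of 6.77 and 8.03. The haemoglobin genes of the same list, named after their values were seen, were below 0 on both arrays, Hba-a1 at -0.45 and -0.47 and Hbb-bt at -0.72 and -0.34. The list's median was 0.093, and 0.58 with the scanner's log ratio. It was 0.24 with a normexp offset of 16 and 0.042 with no background subtraction.

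Likeness to other genes was measured as the distance between the pairs of log2 ratios over the 2 arrays, which are 1 replicate. It was measured with loess scaling only, and the pairs of Mt1 and Mt2 depend on the scaling. The nearest genes with a symbol were Adamtsl4 and Oscar for Mt1, at distances of 0.0021 and 0.0053, and Tgfb1 and Tpra1 for Mt3, at 0.0072 and 0.0079. All were dimmer, with mean log2 signals of 7.69 and 7.94 against 15.92 for Mt1, and 7.51 and 9.55 against 14.03 for Mt3. Within a distance of 0.1 lay 509 genes for Mt1 and 619 for Mt3, so such pairs were common. The nearest to Mt2 were Olfr1394 and Plcb1, at 0.059 and 0.065, and only 4 genes lay within 0.1. These 2 were dimmer too, at 6.88 and 12.08 against 16.26 for Mt2.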

How the data were processed

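Two-colour arrays of hippocampal RNA (ASX and control, dyes exchanged) were quantified in Agilent Feature Extraction 11.0.1.1, per the submitters' processing notes and the file headers. The deposited intensity of a spot is a pixel median per channel, with the median of the surrounding background beside it, not normalized, per the file headers. The deposited log ratio is log10 of Cy5 over Cy3 after the scanner software's background subtraction and dye normalization, and its deposited p-value comes from the software's error model for 1 spot. The deposited value table of the series is log10 of the same processed signals (largest difference 5e-08), not turned for the dye swap. The authors' flags mark spots well above background and saturated; 0 spots were saturated.

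In R 4.3.3, limma 3.58.1 corrected the background (normexp, offset 50) and fitted a loess curve within each array, to which control spots did not contribute. Control spots (1639 of 45018) and 3 non-uniform spots were left out. Ratios were turned to log2 of ASX over control and spots of a probe averaged; a gene took its brightest probe among the 30071 of 41171 (73.0%) whose 4 signals (2 RNAs on 2 arrays) were all well above background. Accessions were named through RefSeq (GRCm38.p6): 23372 probes matched 1 symbol and the others kept their accession. The array was designed on another build, so the only coordinates given are those of the RefSeq promoters. The normalization was tested on simulated data with a smooth dye curve over brightness. That test does not cover dye effects of single probes or the lean to Cy5 that the brightest genes kept.

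With 1 replicate, a gene was called where each array put it 1.5-fold or more apart with the same diet on top. All 6 members are named; from each of 18 gene lists, the genes called or else the 2 largest mean ratios in size; and for each metallothionein gene the 2 nearest genes. The value of 1 gene that this rule takes is not reported here. The members and lists were chosen with earlier results of these data known. Alternatives were a normexp offset of 16, no background subtraction, median centring, the scanner's log ratio, the value table, scaling on spike-in controls, no brightness filter, the mean over probes, and each array alone.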

Additional observations from a re-analysis of the deposited data

How the results depend on the processing

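No member was called with both arrays under any of the 8 other ways of processing. With a single array and loess scaling, members at least 1.5-fold higher numbered 0 on array 2 and 1, Mt2, on array 1. The count lower was then 0 on each array. With median centring Mt1, Mt2 and Mt3 were past 1.5-fold lower on array 2, at -0.67, -0.71 and -0.61. With spike-in scaling they were at -0.71, -0.75 and -0.65 there. On array 1 median centring put Mt2 at 0.71. The members' median of 0.077 became -0.12 with median centring and -0.31 with spike-in scaling. These moved the median of everything measured to -0.10 and -0.30. With single arrays and loess scaling the members' median ran from -0.0499 to 0.098, array 2 giving the lower value. With the other 6 it lay between 0.055 and 0.078. Over the 8 other ways with both arrays, of 48 values of the members' ratios 40 moved by less than the SD between the arrays and 8 by more; of 48 dye parts, 45 and 3; of 144 list medians, 98 and 46. For a member that SD is larger where its dye part is larger, so the tally does not measure stability. With the scanner's log ratio the dye part of Mt1 went from 0.19 to 0.009. With median centring the ratio of Mt1 went from 0.074 to -0.17. Both count as moves by less than the SD. The cause of these shifts was not tested. The deposited table holds the scanner's ratios again, the brightness filter changed no member's probe, and spike-in scaling differs from median centring by a constant per array, so these are not separate checks. No paired analysis was possible because the arrays were treated as 1 replicate and the labels give no other pairing of the RNA samples. The dimmer probe of Mtf1 was not well above background in any signal, so no ratio of it is given.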

Other observations

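Metallothioneins also bind copper, and genes of copper handling were followed as well. Of 13 such genes 12 were measured, with a median log2 ratio of -0.0487 for ASX over control. On both arrays 2 were above 0 and 5 below, beside 22.2% and 23.0% of everything measured. None was past 1.5-fold in the same diet direction on both arrays. Atp7b, which encodes a copper-exporting ATPase, had the highest mean, 0.28, from 0.55 on array 1 and 0.016 on array 2. Sco1, a gene of copper delivery to cytochrome c oxidase, had the lowest, -0.17, from -0.0382 and -0.30, though another probe had 0.11 on array 2. Relative to everything measured, the list's median lay between -0.11 and -0.0418 over the 9 ways of processing.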
